A study of Mus musculus with 8 samples.

Results

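The genes described here are 8 genes known to respond to glucocorticoids, Fkbp5, Sgk1, Tsc22d3, Zbtb16, Mt1, Mt2, Cdkn1a and Pdk4, together with Nr3c1 and Nr3c2, which encode the glucocorticoid and mineralocorticoid receptors. They are 10 of the 18939 genes in the table of TRAP-Seq counts, chosen by name, with each gene represented by its row with the highest total. All 10 had reads in all 8 libraries and all 10 were tested. Translating ribosome affinity purification (TRAP) recovers RNA on EGFP-tagged ribosomes, here from mu-opioid receptor (MOR) expressing neurons in gross dissections aimed at the paraventricular nucleus of the thalamus (PVT). The mice, labelled OPRM1cre X EGFP-L10a, carried Cre at the Oprm1 gene and a Cre-dependent EGFP-L10a on a C57Bl/6J background, in both groups, and were 8 to 12 weeks old. The morphine group drank morphine, raised in steps to 0.5 mg/ml, in 0.2% saccharin for 11 days. The control group drank 0.2% saccharin alone. Mice of both groups were killed between 12 and 14 h, in the light phase. According to the methods, dissections from 2 same-sex mice went into each library, which is uncertain for control replicate 5, labelled female but with reads of Y-linked genes. Each group had 4 libraries, 2 labelled male and 2 labelled female (control replicates 1, 2, 5 and 6, morphine replicates 3, 4, 7 and 8). Cre from the Oprm1 gene tags any cell in the dissection that expresses or once expressed Oprm1, so neighboring regions can contribute RNA.

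Corticosterone, the main glucocorticoid of mice, crosses the cell membrane and binds 2 receptors, which then act as transcription factors. The mineralocorticoid receptor binds corticosterone with the higher affinity and the glucocorticoid receptor is filled mainly at the daily peak or during stress. FKBP5 is a co-chaperone that lowers the affinity of the glucocorticoid receptor, SGK1 is a kinase that acts on channels and transporters, TSC22D3 (GILZ) mediates anti-inflammatory effects, and ZBTB16 (PLZF) is a transcriptional repressor. Mt1 and Mt2 encode metallothioneins, small cysteine-rich proteins that bind zinc and copper. Their transcription responds to metals, through the factor MTF1 and metal response elements, as well as to glucocorticoids and oxidative stress. CDKN1A (p21) inhibits cyclin-dependent kinases, and PDK4 inhibits the pyruvate dehydrogenase complex.

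Mt2 and Mt1 lie side by side on chromosome 8 of GRCm38.p6, Mt2 from 94172618 to 94173567 and Mt1 from 94178883 to 94180327, on the plus strand and 5315 bases apart. Their promoters are shown because both genes were higher in every morphine library and because they carry the metal response element core for which the pair is known. The stretches, from RefSeq on GRCm38.p6, run from 250 bases before to 30 bases after the RefSeq start on the plus strand, at chr8:94172368-94172647 for Mt2 and chr8:94178839-94179118 for Mt1. The RefSeq start of Mt1 lies 206 bases inside the gene as GENCODE gives it, so most of the Mt1 stretch is within the GENCODE gene, while for Mt2 both starts are the same. Capitals mark matches to the core TGCACNC or TGCGCNC on either strand.
Mt2: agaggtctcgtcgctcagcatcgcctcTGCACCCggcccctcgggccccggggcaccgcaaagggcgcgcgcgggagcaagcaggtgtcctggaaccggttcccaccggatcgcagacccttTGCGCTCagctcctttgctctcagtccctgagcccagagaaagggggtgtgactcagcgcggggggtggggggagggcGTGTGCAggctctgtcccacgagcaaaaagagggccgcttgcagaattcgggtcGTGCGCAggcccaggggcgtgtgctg
Mt1: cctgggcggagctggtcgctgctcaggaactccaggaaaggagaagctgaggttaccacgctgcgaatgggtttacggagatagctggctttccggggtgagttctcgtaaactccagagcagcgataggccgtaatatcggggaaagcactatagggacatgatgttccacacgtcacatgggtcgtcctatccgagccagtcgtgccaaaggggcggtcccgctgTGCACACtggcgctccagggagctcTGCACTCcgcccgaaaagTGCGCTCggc
In the window of 250 bases before to 50 bases after the start, Mt2 held 4 matches, 2 on each strand, and Mt1 held 3, all on the strand of the gene. At least 1 match was present in 25.7% of the 32851 RefSeq promoters of this length and 4 or more were present in 0.517%. Of the 10 genes, 8 had a promoter that was searched. Nr3c2 and 1 of the 6 windows of Sgk1 held 1 match each, and the windows of Fkbp5, Tsc22d3, Cdkn1a and Pdk4 held 0. The half-site AGAACA of the glucocorticoid response element, searched on both strands, was present in 19.0% of promoters. It matched in 3 of the 6 windows of Sgk1 and in 1 of the 3 windows of Tsc22d3, and 0 times in Mt1, Mt2, Nr3c2, Fkbp5, Cdkn1a and Pdk4. These matches describe letters within the windows, and stretches outside them were not searched. Neither the Mt1 window nor the Mt2 window held the letters TATAAA on the strand of the gene. No binding was measured here.

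Among the 8 responsive genes Mt1 supplied the largest part of the higher level with morphine (Zbtb16 did when control replicate 6 was left out), and the receptor gene Nr3c2 differed by a like amount. Mt1 and Nr3c2 were called higher in the morphine libraries (edgeR, quasi-likelihood test, P adjusted by Benjamini-Hochberg over all genes and equal to 0.0176 for each). Sgk1 and Mt2 were higher in every morphine library but did not pass the adjusted threshold of 0.05. Fkbp5 was higher in 3 of 4 morphine libraries than in any control library. Zbtb16, Cdkn1a, Pdk4, Tsc22d3 and Nr3c1 overlapped widely between the groups. Thus 2 of the 10 genes were called, against 0.195% of all genes tested, and 5 had an unadjusted P value under 0.05, against 12.1% of all genes. The 4 morphine libraries were each above the highest control library in 4 of the 10, against 3.34% of all genes, and each below the lowest in 0 of the 10, against 3.21%. DESeq2 called 4 of the 10 (Mt1, Nr3c2, Sgk1 and Mt2), against 2.65% of all genes, and edgeR with sex in the model called Mt1 and Nr3c2, against 0.581%. The genes were chosen with earlier results of these libraries known, so these counts describe them and are not a test of the set.

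**Figure D1:**
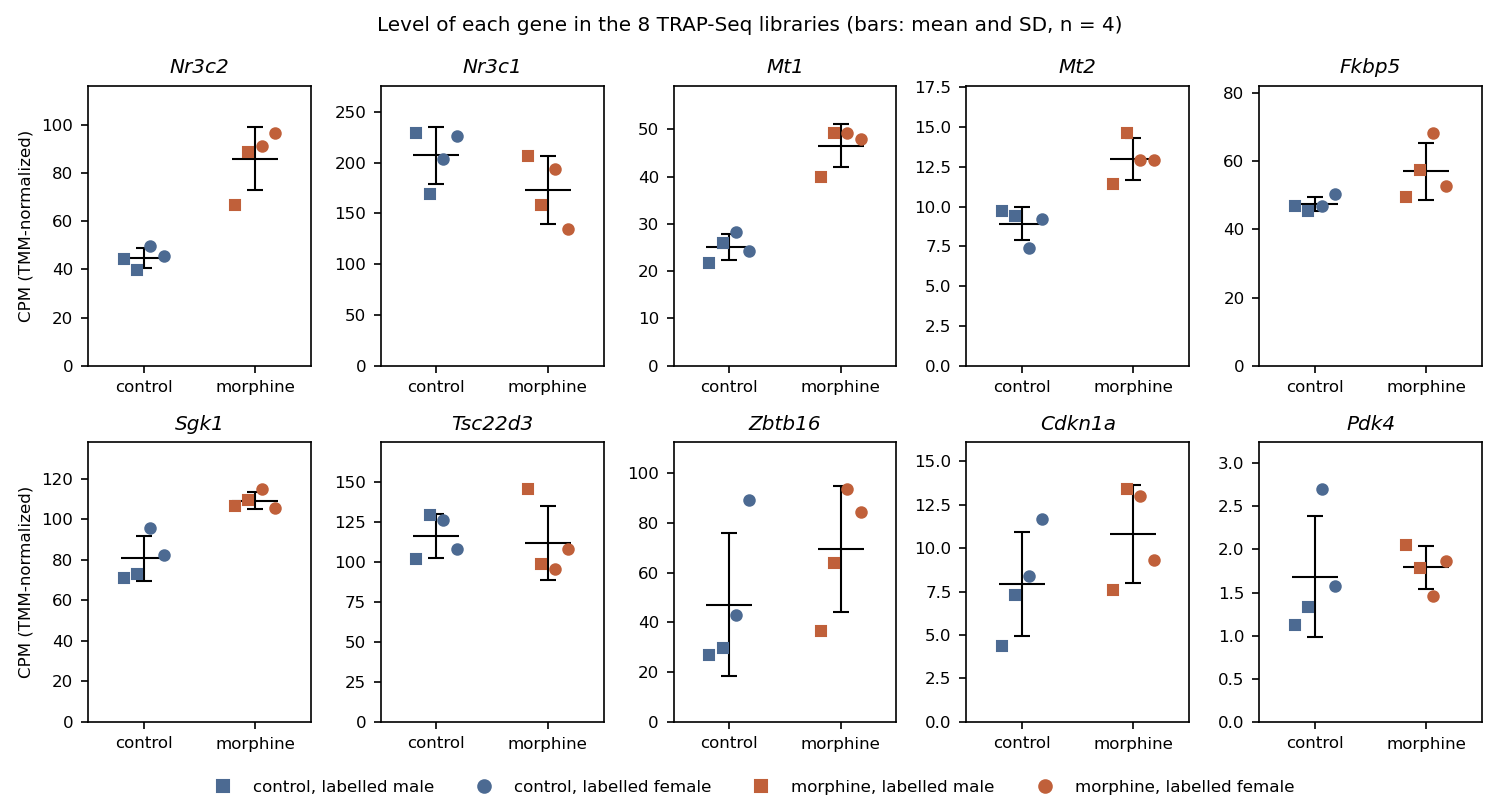
Level of the 10 genes in each of the 8 TRAP-Seq libraries, in CPM (counts scaled to a TMM-normalized library size). Squares are libraries labelled male, circles libraries labelled female, and bars the mean and SD of 4 libraries. The 4 morphine libraries lie above the 4 control libraries for Nr3c2, Mt1, Mt2 and Sgk1, and the groups overlap for the other 6 genes.

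Over the 8 responsive genes the median log2 fold change was 0.44 and 7 of 8 (87.5%) were above 0, while over all genes the median was 0.01 and 51.4% were above 0. The mean of the 8 log2 fold changes was 0.40, and Mt1 supplied 28% of it. Zbtb16 supplied 17.7%, Mt2 17.0%, Cdkn1a 14.1% and Sgk1 13.7%. Fkbp5 supplied 8.36%, Pdk4 2.88% and Tsc22d3 -1.69%. In the model without sex, the parts of Zbtb16 and Cdkn1a came with wide intervals, described with those genes. A large part in the mean was thus not the same as a difference beyond the spread of libraries. Without Mt1 the mean was 0.33, and without either metallothionein it was 0.29. Without control replicate 6 the mean of the 8 was 0.47 and Zbtb16 came first, with 28.1% against 22.8% for Mt1. In fits with a marker score, described with the markers, the mean was 0.16 with the choroid plexus score and 0.17 with the telencephalic score, of which Mt1 supplied 59.5% and 62.9%, and Zbtb16 and Cdkn1a were below 0 in both. Averaged over the 8 genes, log2 CPM came to 4.16, 4.36, 4.60 and 4.66 in control replicates 1, 2, 5 and 6 and 4.70, 4.92, 4.96 and 4.88 in morphine replicates 3, 4, 7 and 8. Every morphine library was thus above every control library on this average, with control replicate 6 and morphine replicate 3 close together. Without Mt1 and Mt2 the averages of the other 6 genes overlapped, with 4.25, 4.49, 4.85 and 4.92 in the control replicates and 4.79, 4.98, 5.06 and 4.96 in the morphine replicates, where replicate 3 was below control replicates 5 and 6.

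**Figure D2:**
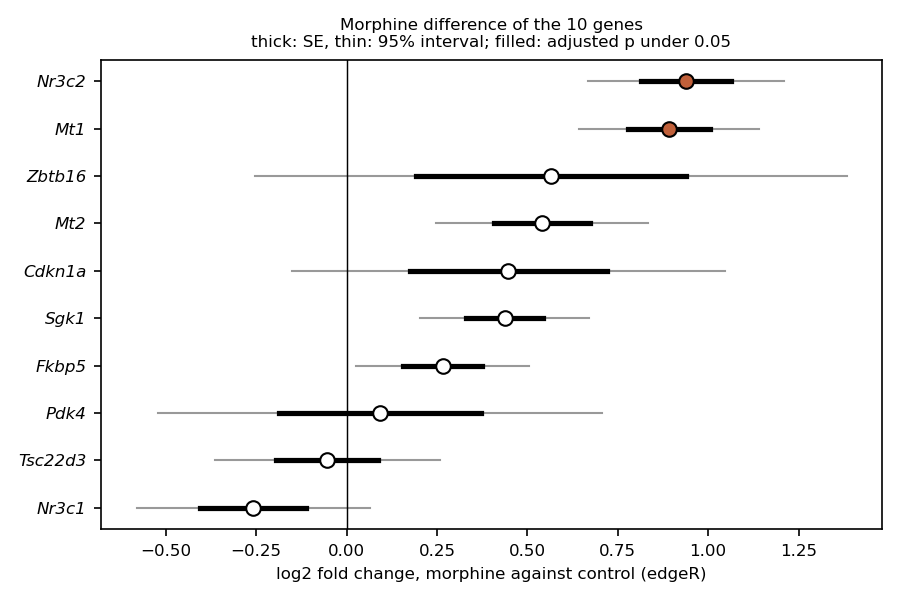
Log2 fold change of each gene, morphine as compared to control, from edgeR. Points are estimates, thick lines the SE, thin lines the 95% interval, and filled points have an adjusted P value under 0.05. Nr3c2 (0.94) and Mt1 (0.89) are filled, the intervals of Mt2, Sgk1 and Fkbp5 lie above 0, and those of the other 5 genes include 0.

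The mineralocorticoid receptor gene Nr3c2 lies on chromosome 8 from 76898083 to 77245012 (plus strand). It had 44.5, 39.8, 49.7 and 45.6 CPM in control replicates 1, 2, 5 and 6 and 67.0, 88.9, 91.3 and 96.9 CPM in morphine replicates 3, 4, 7 and 8. The control libraries kept within a narrow band and each morphine library was above it, with replicate 3 the lowest of the morphine group. The level rose from 44.9 ± 4.10 to 86 ± 13.1 CPM (SD, n = 4), which is 1.92-fold. The log2 fold change was 0.94 with a standard error of 0.12 (95% interval 0.67 to 1.21). The exact two-sided permutation test over the 70 arrangements of the libraries gave P = 0.0286, below which 4 libraries against 4 cannot go. With 1678 to 2080 reads in control and 2383 to 4716 in morphine libraries, counting error was small beside the spread between libraries.

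The glucocorticoid receptor gene Nr3c1, on chromosome 18 from 39410545 to 39519421 (minus strand), did not pass the test. It had 230, 169, 204 and 226 CPM in control replicates 1, 2, 5 and 6 and 207, 158, 194 and 134 CPM in morphine replicates 3, 4, 7 and 8. Morphine replicates 4 and 8 were below every control library and replicates 3 and 7 were within the control range. The level was 207 ± 27.9 CPM with saccharin and 173 ± 33.2 CPM with morphine (SD, n = 4), and the log2 fold change was -0.26 (standard error 0.15, 95% interval -0.58 to 0.06, edgeR adjusted P = 0.527). The exact two-sided permutation P was 0.2, and without morphine replicate 8 the log2 fold change was -0.15. In fits with a marker score, described with the markers, it was -0.11 (astrocyte), -0.018 (choroid plexus) and -0.24 (telencephalic). Within a library, the ratio of Nr3c2 to Nr3c1 CPM lay between 0.194 and 0.244 in the control group. It was 0.324, 0.562, 0.471 and 0.722 in morphine replicates 3, 4, 7 and 8. This ratio was chosen after its values were seen and is given without a test.

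**Figure D3:**
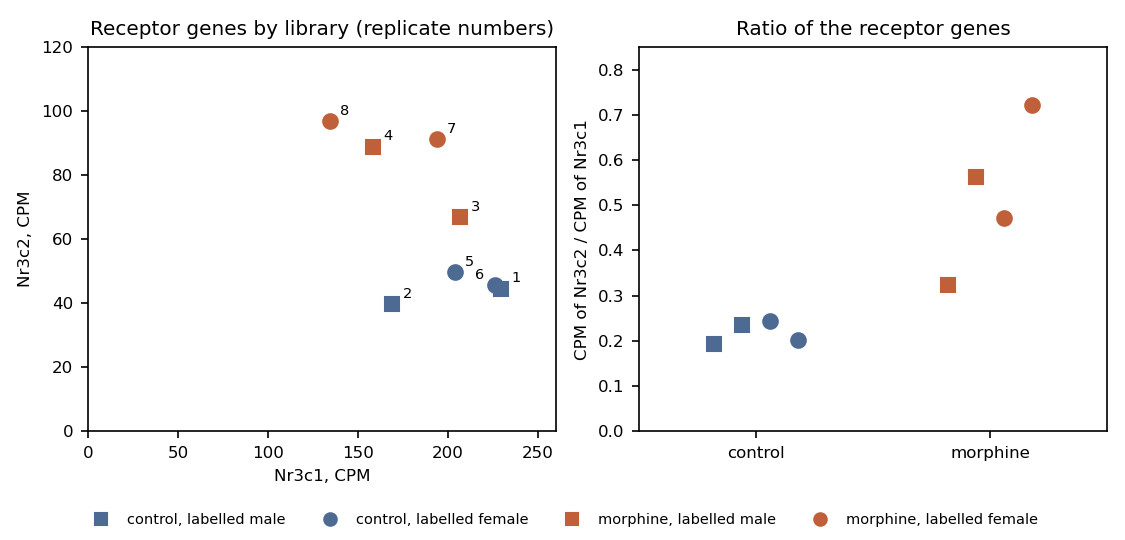
Receptor genes by library. Left, CPM of Nr3c2 against CPM of Nr3c1, with replicate numbers, and right, the ratio of the 2 levels in each library. The control libraries have ratios up to 0.244 and the morphine libraries start at 0.324.

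Mt1 had 21.8, 26.0, 28.4 and 24.2 CPM in control replicates 1, 2, 5 and 6 and 39.9, 49.2, 49.3 and 47.9 CPM in morphine replicates 3, 4, 7 and 8. The morphine libraries were all well above the highest control library, and morphine replicates 4, 7 and 8 were nearly level while replicate 3 was lower. The gene rose from 25.1 ± 2.79 to 46.6 ± 4.52 CPM (SD, n = 4), which is 1.86-fold, with a log2 fold change of 0.89 (standard error 0.11, 95% interval 0.64 to 1.14, exact two-sided permutation P = 0.0286). Each library held between 850 and 2331 reads of Mt1. None of the 500 stretches of 50 bases in its transcript occurs in a transcript of another gene, so its reads are not shared with Mt2 or a pseudogene transcript of the annotation.

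Mt2, the neighbor of Mt1 and the less abundant of the pair per length, was not called. It had 9.74, 9.39, 7.39 and 9.20 CPM in control replicates 1, 2, 5 and 6 and 11.4, 14.7, 12.9 and 12.9 CPM in morphine replicates 3, 4, 7 and 8. All morphine libraries were above all control libraries, with the lowest again replicate 3. The level was 8.93 ± 1.05 CPM in the control group and 13 ± 1.31 CPM in the morphine group (SD, n = 4). For Mt2 the log2 fold change was 0.54 (standard error 0.13, 95% interval 0.25 to 0.83, edgeR adjusted P = 0.136), the exact two-sided permutation P was 0.0286, and DESeq2 gave an adjusted P of 0.00793. The difference in fold change between Mt1 and Mt2 was not tested. Of the 462 stretches of 50 bases in the Mt2 transcript, 210 (45.5%) also occur in Gm45774, an antisense transcript that overlaps Mt2. The use of strand in the counting is not given in the sources used here, so reads of the antisense transcript may be part of the Mt2 value.

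Both called genes lost the adjusted threshold when control replicate 1, morphine replicate 4, morphine replicate 7 or morphine replicate 8 was left out, with adjusted P values up to 0.0905 for Mt1 and 0.0926 for Nr3c2. Over the 8 fits that left out 1 library, the log2 fold change of Mt1 ranged from 0.82 to 0.96 and that of Nr3c2 from 0.88 to 1.04. Without control replicate 5, a library labelled female in which 4 Y-linked genes reached 28.7% to 35.8% of the average male level, both were called. In the other 3 libraries labelled female these Y-linked genes had at most 2 reads.

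Sgk1, on chromosome 10 from 21882184 to 21999903 (plus strand), was higher in every morphine library but was not called. It had 71.2, 73.0, 95.9 and 82.5 CPM in control replicates 1, 2, 5 and 6 and 107, 110, 115 and 106 CPM in morphine replicates 3, 4, 7 and 8. The 4 morphine libraries were close together, while the control libraries spread more and control replicate 5 came nearest to the morphine group. The level was 80.7 ± 11.3 CPM in the control group and 109 ± 4.21 CPM in the morphine group (SD, n = 4). This is a log2 fold change of 0.44 (standard error 0.11, 95% interval 0.20 to 0.67, edgeR adjusted P = 0.130), with an exact two-sided permutation P of 0.0286 and a DESeq2 adjusted P of 0.0148. The table has 6 rows for Sgk1 transcripts, which share most reads. Their log2 ratios of mean CPM lay between 0.44, for the row used, and 0.48. The reads counted on that row beyond the other 5 rows came to 11.8 ± 1.40 CPM in the control group and 13.2 ± 1.00 CPM in the morphine group (SD, n = 4, exact two-sided permutation P = 0.2). Each of the other 5 rows was also higher in every morphine library.

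Fkbp5, on chromosome 17 from 28398753 to 28486149 (minus strand), had 46.9, 45.5, 46.8 and 50.3 CPM in control replicates 1, 2, 5 and 6 and 49.5, 57.5, 68.4 and 52.6 CPM in morphine replicates 3, 4, 7 and 8. Morphine replicate 3 was below control replicate 6 and the other 3 morphine libraries were above every control library. The level was 47.4 ± 2.05 CPM in the control group and 57.0 ± 8.26 CPM in the morphine group (SD, n = 4). This gave a log2 fold change of 0.27 (standard error 0.11, 95% interval 0.03 to 0.51), with an unadjusted P of 0.0320, an edgeR adjusted P of 0.354 and an exact two-sided permutation P of 0.0571. Without morphine replicate 7 the log2 fold change was 0.15 (unadjusted P = 0.18), and the unadjusted P was above 0.05 in 6 of the 8 fits that left out a library. With the telencephalic score, described with the markers, it was 0.11.

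Tsc22d3, on chromosome X from 140539528 to 140600522 (minus strand), was the only one of the 8 responsive genes with a log2 fold change below 0. It had 102, 129, 126 and 108 CPM in control replicates 1, 2, 5 and 6 and 146, 98.5, 95.4 and 108 CPM in morphine replicates 3, 4, 7 and 8. The highest and the lowest library of all 8 were both morphine libraries. Its log2 fold change of -0.05 (standard error 0.14) had a 95% interval of -0.36 to 0.26, which includes a decrease and an increase (edgeR adjusted P = 0.904).

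Zbtb16, on chromosome 9 from 48651797 to 48836225 (minus strand), varied most among libraries of the same group. It had 26.8, 29.6, 42.8 and 89.0 CPM in control replicates 1, 2, 5 and 6 and 36.5, 63.8, 93.6 and 84.3 CPM in morphine replicates 3, 4, 7 and 8. In each group, both libraries labelled female were above both libraries labelled male. The level was 47.1 ± 28.8 CPM in the control group and 69.6 ± 25.3 CPM in the morphine group (SD, n = 4), and the log2 fold change of 0.57 had a standard error of 0.37 (95% interval -0.25 to 1.38, edgeR adjusted P = 0.594, exact two-sided permutation P = 0.286). With the sex on the labels in the model, the log2 fold change was 0.63 (standard error 0.22, unadjusted P = 0.0139, edgeR adjusted P = 0.279). Without control replicate 6 the log2 fold change was 1.05 (unadjusted P = 0.00404, edgeR adjusted P = 0.191), while it was 0.36 without control replicate 1 and 0.37 without morphine replicate 7.

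Cdkn1a, on chromosome 17 from 29090979 to 29100722 (plus strand), had 4.38, 7.29, 8.39 and 11.7 CPM in control replicates 1, 2, 5 and 6 and 7.62, 13.4, 13 and 9.31 CPM in morphine replicates 3, 4, 7 and 8. The groups overlapped, at 7.94 ± 3.01 and 10.8 ± 2.83 CPM (SD, n = 4). Its log2 fold change was 0.45 (standard error 0.27, 95% interval -0.15 to 1.05, edgeR adjusted P = 0.559). Without control replicate 1 it was 0.24, and without control replicate 6 it was 0.67 (unadjusted P = 0.0259, edgeR adjusted P = 0.389). Pdk4, on chromosome 6 from 5483351 to 5496278 (minus strand), was the least abundant of the 10 genes per length, with 44 to 113 reads per library. It had 1.13, 1.33, 2.70 and 1.57 CPM in control replicates 1, 2, 5 and 6 and 2.05, 1.79, 1.46 and 1.87 CPM in morphine replicates 3, 4, 7 and 8. The highest library was control replicate 5. The log2 fold change was 0.09 (standard error 0.28, 95% interval -0.52 to 0.71, edgeR adjusted P = 0.920), and its interval includes the estimate for Mt2.

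Levels can be compared between genes only per length. In CPM per kilobase of transcript, the control means ran from Tsc22d3 (58.8) and Mt1 (45.7) through Nr3c1 (32.8), Sgk1 (26.1), Mt2 (17.5), Fkbp5 (13.4), Zbtb16 (9.20), Nr3c2 (7.91) and Cdkn1a (4.15) to Pdk4 (0.483). In the morphine group Mt1 came first at 84.8 ± 8.24 CPM per kilobase (SD, n = 4), above Tsc22d3 at 56.7 ± 11.7. Nr3c2 reached 15.2 ± 2.32 CPM per kilobase, next to Fkbp5 at 16.1 ± 2.33 and Zbtb16 at 13.6 ± 4.95, and these 3 neighbors in the order did not differ beyond their spread. Nr3c1, at 27.4 ± 5.24 CPM per kilobase, stayed above Nr3c2 in every library.

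Mt1 and Nr3c2 followed each other closely across the 8 libraries. Likeness was measured by the root mean square difference of mean-centered log2 CPM over the 8 libraries, among 9371 genes with a mean of at least 10 CPM. For Mt1 the nearest genes were Lmo3 (0.10), Nr3c2 (0.13), Zfp238 (0.14, now Zbtb18), Epha4 (0.14) and Mmd (0.15). For Nr3c2 they were Kctd4 (0.13), Mt1 (0.13), Zfp238 (0.13), Lmo3 (0.18) and Epha4 (0.19). Lmo3 and Zfp238 encode transcriptional regulators and Epha4 encodes an ephrin receptor. All of these were called in the morphine group, with log2 fold changes from 0.69 for Epha4 to 1.04 for Zfp238 (edgeR adjusted P from 0.0176 to 0.0474). Kctd4 lies within Gtf2f2 on the opposite strand, so its value is uncertain. Mt2 ranked 113 among the neighbors of Mt1 (0.27). All values share the same library sizes and the same 2 groups, so these distances include the difference between the groups.

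Other cell types in the dissection could contribute RNA, and their marker genes were read beside the results. Metallothioneins are abundant in astrocytes. The summed level of 10 astrocyte markers was 543 to 673 CPM in the control libraries and 482 to 714 CPM in the morphine libraries, so the groups overlapped. Most of this sum came from Slc1a2 and Aldoc. Over the single markers, 8 of 10 had a log2 fold change above 0, with a median of 0.37. Of the 10, 1 had an unadjusted P under 0.05 and 0 were called. Sox9 (0.73), Gfap (0.62) and Slc1a3 (0.52) had the highest values, Slc1a2 was at 0.01, and Aqp4 (-0.06) and Aldoc (-0.25) were below 0. The 10 oligodendrocyte markers summed to 131 to 1292 CPM and 607 to 1591 CPM, all 10 with a log2 fold change above 0 and 0 called. The 8 microglia markers summed to at most 15.3 CPM in a library, the 8 endothelial markers to 8.89, the 5 mural markers to 11.2 and the 6 ependymal markers to 11.6, with overlap of the groups in each list.

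The 11 choroid plexus markers summed to 35.7 to 106 CPM in the control group and 127 to 397 CPM in the morphine group, without overlap. Of these, 10 had a log2 fold change above 0, 9 had an unadjusted P under 0.05 and 0 were called, and Kcnj13 was at 0 in 1 library. The 9 markers of telencephalic pyramidal neurons summed to 263, 297, 282 and 525 CPM in control replicates 1, 2, 5 and 6 and 414, 804, 609 and 679 CPM in morphine replicates 3, 4, 7 and 8. Of these 9, 8 had a log2 fold change above 0, with a median of 1.15, 6 had an unadjusted P under 0.05 and 0 were called. Neurod6 (3.32) and Neurod2 (2.38) were higher in every morphine library than in any control library. Cux2 was the only marker of this list below 0 (-0.32, 130 CPM in the control and 104 CPM in the morphine group). The 8 markers of midline thalamic MOR neurons, Oprm1 among them, summed to 2104 to 2872 CPM in the control group and 1527 to 2804 CPM in the morphine group, all 8 with a log2 fold change below 0, with a median of -0.41, 3 at an unadjusted P under 0.05 and 0 called. The 6 measured medial habenula markers summed to 45.5 to 67.5 CPM and 43.6 to 64.3 CPM. In these bulk samples, fewer cells of a type and less RNA per cell cannot be told apart.

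In edgeR fits that included a marker score, 0 of the 10 genes were called, and the direction of Mt1 and Nr3c2 did not change. The genes called over the whole table were not counted in these fits, so the 0 of 10 has no share over all genes beside it. The log2 fold change of Mt1 was 0.86 with the astrocyte score (adjusted P = 0.0552), 0.78 with the choroid plexus score (unadjusted P = 0.00281, adjusted P = 1) and 0.83 with the telencephalic score (unadjusted P = 0.00153, adjusted P = 0.590). That of Nr3c2 was 0.97 (adjusted P = 0.0552), 0.82 (unadjusted P = 0.00333, adjusted P = 1) and 0.79 (unadjusted P = 0.00345, adjusted P = 0.590). The estimates of Zbtb16 and Cdkn1a changed sign with the choroid plexus score (-0.39 and -0.22) and with the telencephalic score (-0.59 and -0.30). The choroid plexus score was higher in every morphine library than in any control library, so a fit with it separates the score from morphine poorly. The standard error of Mt1 was 0.11 without a score, 0.20 with the choroid plexus score and 0.19 with the telencephalic score. The part of other cell types in the differences was not tested.

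**Figure D4:**
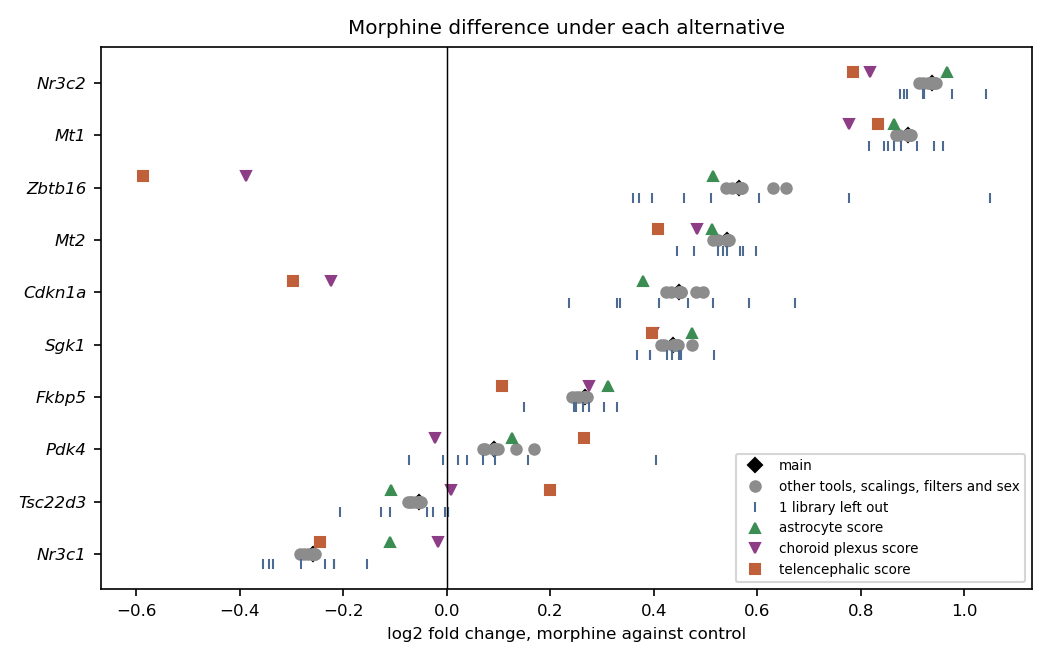
Log2 fold change of each gene, morphine as compared to control, under every alternative. Black diamonds are the reported values, gray circles other tools, scalings, filters and sex, ticks the fits with 1 library left out, and colored symbols the fits with a marker score. Nr3c2 and Mt1 stay between 0.78 and 1.04, while Zbtb16 and Cdkn1a cross 0 with the choroid plexus and telencephalic scores.

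Male and female libraries were compared because each group held both. With condition in the model, 0 of the 10 genes were called between the sexes on the labels, and over all genes 1 was called (0.00528%), with 587 at an unadjusted P under 0.05 and 21 called by DESeq2. Zbtb16 had the smallest unadjusted P of the 10. Its mean was 39.2 CPM in the male and 77.4 CPM in the female libraries, a log2 difference of 1.02 (standard error 0.22, unadjusted P = 0.000548, edgeR adjusted P = 0.702), with a DESeq2 adjusted P of 0.0321. Without control replicate 5 this difference was 1.16 (edgeR adjusted P = 0.310).

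For the interaction of sex and morphine, with only 2 libraries in each combination, edgeR called 0 genes (0% of all genes), with 325 at an unadjusted P under 0.05 and 4 called by DESeq2. Mt1 had nearly the same difference in both sexes, with a log2 difference of 0.89 in the male and 0.89 in the female libraries and an interaction of -0.01 (standard error 0.25). For Nr3c2 the difference was 0.87 in the male and 0.98 in the female libraries, with an interaction of 0.10 (standard error 0.24). Pdk4 was 0.62 in the male and -0.31 in the female libraries, with an interaction of -1.0 (standard error 0.49, unadjusted P = 0.0676, edgeR adjusted P = 1.00).

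Around the 10 genes, 8 lists of pathway genes (110 genes) were read in the same fit. edgeR called 0 of the 110, while 21 were higher and 2 lower at an unadjusted P under 0.05, and DESeq2 called 6 (Sult1a1, Cebpd, Txnip, Slc30a4, Cdkn1c and Scnn1a). Over all genes edgeR called 0.195%, DESeq2 called 2.65%, 12.1% had an unadjusted P under 0.05 and 51.4% of log2 fold changes were above 0. Over the 110 genes the median was 0.10, beside 0.01 over all genes (log2 fold change). Of 22 other glucocorticoid-responsive genes, 20 had a log2 fold change above 0, with a median of 0.39, and 8 higher and 1 lower had an unadjusted P under 0.05, beside the same shares. Cebpd, a transcription factor gene, had 0.489 CPM in the control group and 2.09 CPM with morphine, a log2 fold change of 2.09 (edgeR adjusted P = 0.0569), and its groups did not overlap. It was called without control replicate 5 (edgeR adjusted P = 0.0248) and with sex in the model.

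Besides Cebpd, the genes of this list with an unadjusted P under 0.05 were Txnip (log2 fold change 1.07), a regulator of thioredoxin, the sulfotransferase gene Sult1a1 (1.89, from 0.149 to 0.570 CPM), the repressor gene Bcl6 (0.55), the glycerol-3-phosphate dehydrogenase gene Gpd1 (0.98, from 28 to 55.2 CPM), the lipid transporter gene Mfsd2a (1.00), Arl4d (0.67, or 0.43 without morphine replicate 4), the phosphatase gene Dusp1 (-0.38, from 58.0 to 44.5 CPM) and Lcn2. The last of these rests on few reads. Lcn2 had 0 reads in every control library and 3, 2, 0 and 2 reads in morphine replicates 3, 4, 7 and 8. The clock gene Per1, which was looked up after the values were seen, was 154 CPM in the control and 116 CPM in the morphine group (log2 fold change -0.41, edgeR adjusted P = 0.486). Of the genes of the list with the most reads, Rhob was at 333 and 352 CPM (0.08, or 0.024 to 0.14 with a library left out) and the glutamine synthetase gene Glul at 280 and 316 CPM (0.17, with both signs when single libraries were left out).

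The 16 genes of receptor chaperones, cofactors and 11-beta-hydroxysteroid dehydrogenases had a median log2 fold change of -0.04, with 7 above 0 and 0 at an unadjusted P under 0.05. The heat shock protein genes Hsp90ab1 (-0.04) and Hspa8 (-0.04) had the most reads, and both took either sign when single libraries were left out. Hsd11b2, whose enzyme protects the mineralocorticoid receptor from corticosterone, had 5 reads over the control libraries and 2 over the morphine libraries.

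Among Mt3, Mt4, Mtf1 and 20 zinc transporters, 19 of 23 had a log2 fold change above 0, with a median of 0.26, and 6 higher and 0 lower had an unadjusted P under 0.05, beside 51.4% and 12.1% over all genes. Mt3, the metallothionein of neurons and astrocytes, had 156 and 187 CPM (log2 fold change 0.26, edgeR adjusted P = 0.384). The zinc exporter gene Slc30a1, a classical target of MTF1, had 14.6 and 18.8 CPM (0.37, or 0.24 without control replicate 5, edgeR adjusted P = 0.346). Slc30a3, which fills synaptic vesicles with zinc, had 8.43 and 14.5 CPM (0.78), Slc30a4 41.5 and 51.2 CPM (0.30, without overlap of the groups) and Slc39a10 65.0 and 92.7 CPM (0.51). Slc39a4 had 0, 6, 5 and 0 reads in control replicates 1, 2, 5 and 6 and 5, 12, 8 and 26 reads in morphine replicates 3, 4, 7 and 8. Mtf1 itself had 51.5 and 49.2 CPM (-0.06) and Slc30a9, the transporter gene with the most reads, 517 and 493 CPM (-0.07, with both signs when single libraries were left out).

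The remaining lists lay nearer to 0. Of 10 genes of the NRF2 response to oxidative stress 4 were above 0, with a median of -0.03. Nfe2l2, which encodes NRF2, had 1.06 and 2.08 CPM without overlap (0.98, unadjusted P under 0.05, not called), and Srxn1 (-0.04, with both signs when single libraries were left out) and Txnrd1 (-0.19) had the most reads. Of 15 p53 targets and Cip/Kip inhibitors 7 were above 0, with a median of -0.06. Cdkn1c, the p57 inhibitor gene, had 1.75 and 4.06 CPM without overlap (1.22), Ccng1 had 91.3 and 108 CPM (0.25) and Zmat3 had 415 and 382 CPM (-0.12, or -0.19 to -0.080 with a library left out). Of 11 genes of the pyruvate dehydrogenase complex, its regulators and Cpt1a 7 were above 0, with a median of 0.01. Cpt1a, the carnitine palmitoyltransferase of fatty acid oxidation, had 1.74 and 2.95 CPM (0.76), and the genes with the most reads were Pdp1 (-0.21, or -0.10 without morphine replicate 8) and Pdha1 (-0.03, with both signs when single libraries were left out).

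Among 10 SGK kinases, activators and substrates, the median log2 fold change was 0.16 and 6 were above 0. Sgk3 (0.69, from 5.28 to 8.56 CPM), Foxo1 (0.78, from 23.6 to 40.8 CPM, but 0.41 with an unadjusted P of 0.145 without morphine replicate 4) and the epithelial sodium channel gene Scnn1a (1.14, from 1.79 to 3.93 CPM) were higher at an unadjusted P under 0.05, and Ndrg1 (-0.43, from 82.4 to 61.2 CPM) was lower. Pdpk1, the activating kinase, had a log2 fold change of -0.08 (-0.16 to -0.016 with a library left out) and Nedd4l one of 0.16 (0.021 to 0.28). The relatives of Tsc22d3 had log2 fold changes of -0.02 (Tsc22d1, which turned to 0.017 without morphine replicate 8), -0.25 (Tsc22d2, -0.35 to -0.15 with a library left out) and -0.07 (Tsc22d4), with 0 of the 3 at an unadjusted P under 0.05.

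**Figure D5:**
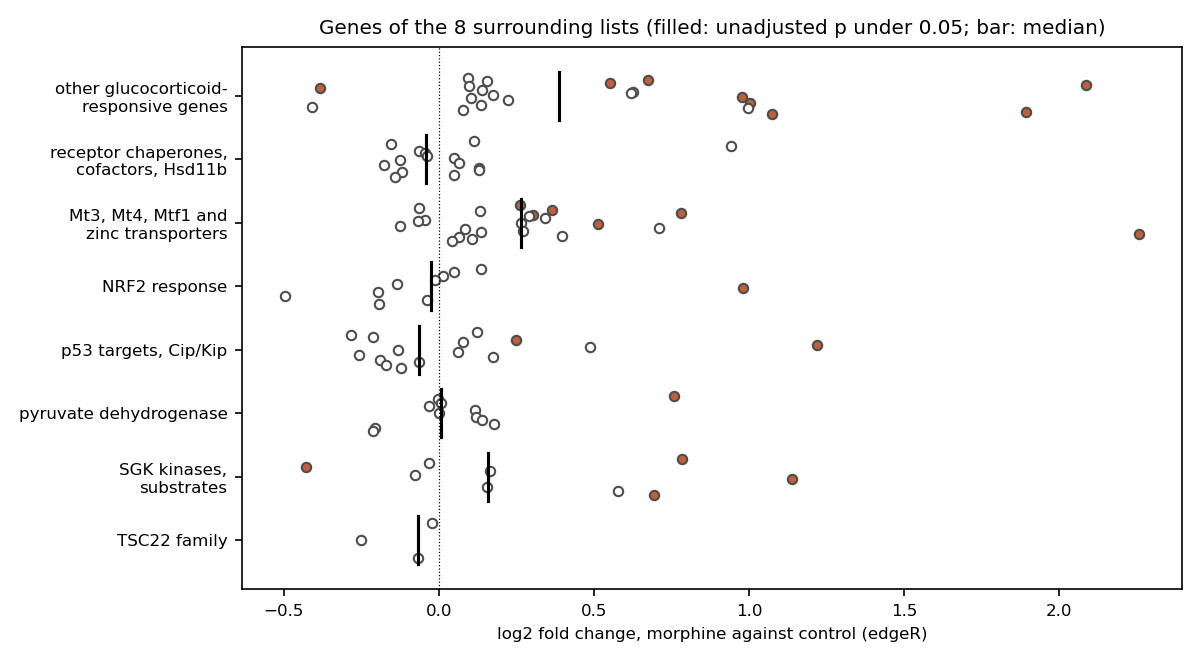
Log2 fold change (edgeR), morphine as compared to control, for the genes of the 8 lists around the 10 genes. Each point is a gene, filled points have an unadjusted P under 0.05, and bars are medians over all measured genes of a list. The 4 genes with 3 or fewer reads in a group (Lcn2, Hsd11b2, Mt4 and Scnn1b) are not drawn. The highest median is 0.39 for other glucocorticoid-responsive genes, and edgeR called 0 of the genes, against 0.195% of all genes.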

How the data were processed

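TRAP-Seq libraries of 4 control and 4 morphine samples were grouped by the labels. The authors deposited whole-number counts of reads per RefSeq transcript, not normalized, in 24488 rows of 18939 genes, with 0 columns left without a sample. Reads shared by transcripts of a gene were counted on each row, so each gene was represented by its row with the highest total. The study's methods describe Salmon with GC bias correction and a matrix per gene from tximport, which the table of whole-number counts per transcript is not. The tool that made this table and its use of strand are not given in the sources used here. The submitters' processing notes name DESeq2 and mm10, and the libraries were 50PE from a directional kit. Total counts ranged from 37081348 to 43311793 in control and from 31151103 to 47582947 in morphine libraries. Reads carry no molecular identifiers, and P values measure the spread between pools of mice.

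Counts were tested over all genes with edgeR 4.0.16 (R 4.3.3; glmQLFit and glmQLFTest, TMM factors, condition only, Benjamini-Hochberg). CPM use TMM library sizes. Standard errors are the log2 fold change over the root of F. Exact permutation tests used log2(CPM + 0.5). Sex was tested with condition in the model, and its interaction with condition in a model with both. Alternatives were DESeq2 1.42.0, limma-voom 3.58.1, other scalings, filters, sex or a marker score in the model, and each library left out. Scores are mean log2 CPM of markers (prior count 2). The tests were tried on simulated counts.

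The genes, lists and markers were chosen with earlier results of these data known. All 10 genes are named. From each list, genes with an unadjusted P under 0.05 and the 2 genes with the highest CPM are named, and for each called gene the 5 most alike among genes with at least 10 CPM. Gene coordinates are from GENCODE on GRCm38.p6. Promoters are from RefSeq and were found for all but Zbtb16, and that of Nr3c1 was not used. The markers Lamp5 and Nwd2 were not used here.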

Additional observations from a re-analysis of the deposited data

Results flagged for a closer look

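Morphine replicate 3 had 39.9 CPM of Mt1, against 47.9 to 49.3 CPM in the other 3 morphine libraries. Its gap to the nearest of them was 0.851 of the range of the group, above Dixon's 95% critical value for 4 samples. Of the 20 groups of 4 libraries examined (10 genes in 2 conditions) this was the only 1 so marked, and about 1 in 20 would be by chance. The library remained above every control library, and without it the log2 fold change of Mt1 was 0.96 (edgeR adjusted P = 0.0140).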

How the results depend on the processing

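No paired analysis was possible because the control and morphine groups share no replicate numbers. Over all genes, 37 were called by edgeR, 502 by DESeq2, 23 by limma-voom, 14 with filterByExpr (14557 genes), 15 where each library had 10 or more counts (13703 genes), 110 with sex in the model and 22 with the rows of a gene summed. With each library left out, 0 to 77 were called, 1 without control replicate 1 and 0 without morphine replicate 4 or 8 (1696 and 1664 at an unadjusted P under 0.05). Of the 10 genes, 2 were called by edgeR, 4 by DESeq2, 0 with the astrocyte, choroid plexus or telencephalic score (5, 2 and 3 at an unadjusted P under 0.05) and 0 to 2 with a library left out. The fits with a score were not counted over all genes, so their counts have no such share beside them. Mt1 and Nr3c2 were called in all 9 alternatives of tool, scaling, filter, sex and summing. Of the 110 list genes, 6 were called by DESeq2, 2 with sex in the model (Cebpd and Bcl6) and 0 to 1 with a library left out. Between the sexes, 21 genes were called by DESeq2, 0 with filterByExpr (495 at an unadjusted P under 0.05) and 0 to 5 with a library left out. For the interaction, 4 were called by DESeq2 and 0 to 5 with a library left out.

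The log2 fold change turned to 0.0078 for Tsc22d3, -0.39 for Zbtb16, -0.22 for Cdkn1a and -0.024 for Pdk4 with the choroid plexus score, and to 0.20 for Tsc22d3, -0.59 for Zbtb16 and -0.30 for Cdkn1a with the telencephalic score. With a library left out, the sign changed for Tsc22d3 (-0.21 to 0.0027), Pdk4 (-0.074 to 0.40), Glul (-0.031 to 0.52), Hsp90ab1 (-0.13 to 0.017), Hspa8 (-0.14 to 0.085), Slc30a9 (-0.20 to 0.0026), Srxn1 (-0.12 to 0.035), Pdha1 (-0.094 to 0.0059) and Tsc22d1 (-0.056 to 0.017). The stricter filters tested fewer genes. The cause of the other changes was not tested. For Pdk4 and for list genes with few reads, counting error limits what can be seen.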
